A study of Mus musculus with 5 samples.

Results

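Type I interferon-stimulated genes are the genes that cells switch on after interferon alpha or beta binds its receptor. A module of 34 such genes, given by name, was followed through the heart and the lymph nodes that drain it. Of these, 33 had a row with their symbol among the 31053 genes of the matrices, and Mx2 was not analysed here. All cells came from C57BL/6 mice, an inbred laboratory strain, with age as the only variable that the labels name. The 18-month heart and the 2-month heart each gave 1 library of a sorted fraction labelled as non-cardiomyocytes, released with collagenase II and dispase II and made with a 3′ kit. The lymph node library, made with a 5′ kit, held CD44-high CD4+ and CD8+ T cells sorted from mediastinal lymph nodes of mice aged 2, 6, 12 and 18 months. Those T cells were pooled after each condition was stained with its own hashtag antibody, and the labels used here do not pair a hashtag with an age, so no lymph node value was read as an age. The labels also do not give the number or the sex of the animals, and levels were not compared between the 2 tissues because the kits differ.

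Interferon alpha and beta bind the receptor chains Ifnar1 and Ifnar2, and the kinases Jak1 and Tyk2 then pass the signal on. A complex that holds Stat2 and Irf9 binds the interferon-stimulated response element, a pair of GAAA motifs with a short spacer, in the promoters of its target genes. The products include sensors of foreign RNA and DNA, proteins that block viral translation and replication, and factors such as Irf7 that feed back on interferon production. In heart and immune tissue the same genes also mark a small population of cells with a strong interferon response, even without infection.

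The stretches just upstream of 5 of the members are shown because this motif pair stands in them, and because most of these genes are described further below. Each stretch has 160 bases that end at the RefSeq transcription start (build GRCm38.p6), reads 5′ to 3′ along the gene, and shows the paired GAAA motifs, or TTTC where the pair lies on the opposite strand, in capitals. Isg15 encodes the ubiquitin-like protein that is attached to target proteins (chr4:156200819-156200978, minus strand), Ifit1 and Ifit3 encode proteins that bind foreign RNA (chr19:34640729-34640888 and chr19:34583369-34583528, both plus strand), Ifit3b is the near-identical neighbour of Ifit3 (chr19:34607797-34607956, plus strand), and Bst2 encodes tetherin, which holds budding virus particles on the cell (chr8:71537473-71537632, minus strand).
Isg15: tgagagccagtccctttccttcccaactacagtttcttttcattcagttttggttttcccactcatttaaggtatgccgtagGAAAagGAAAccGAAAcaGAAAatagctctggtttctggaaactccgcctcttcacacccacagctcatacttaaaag
Ifit1: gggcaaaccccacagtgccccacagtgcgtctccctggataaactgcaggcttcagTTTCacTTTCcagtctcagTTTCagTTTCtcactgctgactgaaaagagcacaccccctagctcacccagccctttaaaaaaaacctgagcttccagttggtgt
Ifit3: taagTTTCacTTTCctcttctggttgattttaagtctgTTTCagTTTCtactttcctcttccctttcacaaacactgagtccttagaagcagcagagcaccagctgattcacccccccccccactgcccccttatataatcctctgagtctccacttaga
Ifit3b: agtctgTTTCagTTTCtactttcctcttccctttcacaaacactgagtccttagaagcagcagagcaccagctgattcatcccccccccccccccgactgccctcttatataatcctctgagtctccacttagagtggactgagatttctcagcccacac
Bst2: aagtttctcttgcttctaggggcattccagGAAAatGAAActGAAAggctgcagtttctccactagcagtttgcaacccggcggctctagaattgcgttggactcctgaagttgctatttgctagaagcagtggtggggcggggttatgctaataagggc
The letters searched were GAAA, any 2 bases and GAAA again, on both strands and with overlapping matches counted, in windows of 300 bases that run from 250 before to 50 after each RefSeq start. Isg15 held 3 overlapping matches that began at -78, -72 and -66 from the start, and Bst2 held 2 that began at -130 and -124. The Ifit1 matches began at -104 and -85, on the opposite strand. Of the 26 members with a window, 16 (61.5%) had at least 1 match, against 1079 of all 27025 genes with a window (3.99%). The 10 members without a match included Irf7, Isg20, Oasl2 and Ifit2, which says only that these letters are not in those windows.

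The members lie in part as gene families in tandem. The IFIT members Ifit2, Ifit3, Ifit1bl1, Ifit3b and Ifit1 sit side by side at chr19:34550694-34650009. Counts of near-identical neighbours (Ifit3 and Ifit3b, Oas1a and Oas1g, Ifit1 and Ifit1bl1) can be split between the copies by read assignment, so their separate values are uncertain.

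After filtering, 7816 cells of the 18-month heart and 10910 of the 2-month heart remained, with medians of 4371 and 8033 UMIs (unique molecular identifiers, a count of captured RNA molecules) per cell. Clustering without interferon genes gave 30 clusters, and 13 cell classes named from marker genes had at least 50 cells at each age, so "fibroblasts" here means cells with fibroblast markers. The sort notwithstanding, 146 cells at 18 months and 687 cells at 2 months carried cardiomyocyte markers such as Myl7 and Nppa. Both libraries mixed animals: 28.1% of 18-month cells and 28.3% of 2-month cells had Xist and no Y-linked UMI, and 34% and 41.8% had a Y-linked UMI and no Xist. The ages share 42 barcodes, 0.475% of the smaller library. Free RNA from other cell types was estimated from their markers. Outside cycling cells it ranged over the classes from 3.19% to 8.94% of UMIs at 18 months and from 2.9% to 11.8% at 2 months. In cycling cells the estimate was 20% and 17.5%. That class mixes lineages, so markers of its own cells can count as free RNA there.

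Member UMIs were summed over the cells of a class and scaled to CPM, so that the levels of all genes in a class add up to the same total at each age. A member was measured in a class with at least 20 UMIs over both ages, and it was called higher or lower when the 18-month level differed from the 2-month level by at least 1.5-fold and the 95% interval of the log2 ratio left out 0. These exact binomial intervals cover counting error only. With 1 library per age there is no replicate check and no p-value, so every difference below compares these libraries and not the ages.

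Across the 13 classes, 345 of the 429 pairs of member and class were measured. Of these pairs 55 (15.9%) were higher in the 18-month library and 15 (4.35%) were lower, beside 7.09% and 4.9% of all pairs of gene and class. The list did not move as a block. Its median log2 ratio was highest in cardiomyocytes at 0.77 and lowest in endocardial cells at -0.39, and it lay between -0.22 and 0.45 in the other classes.

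**Figure D1:**
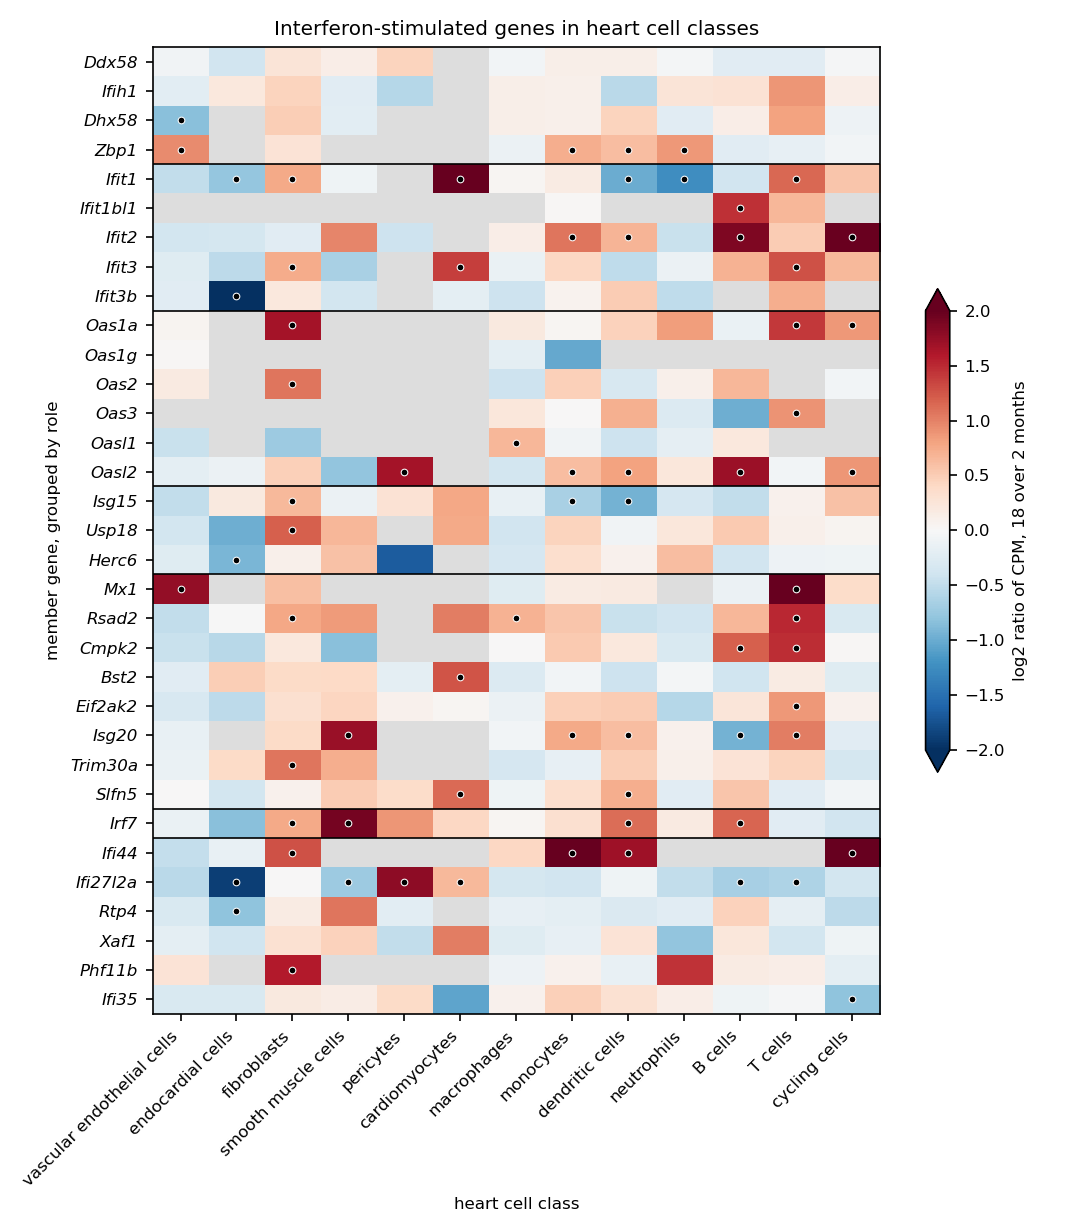
Log2 ratio of CPM, 18 over 2 months, for each member (rows) in each heart cell class (columns). Colour is clipped at 2 in either direction, grey marks pairs with fewer than 20 UMIs, and dots mark the 55 higher and 15 lower pairs past the fold rule; the fibroblast and T cell columns hold 11 and 9 higher pairs, and the endocardial column holds 5 lower pairs.

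Fibroblasts, the matrix-producing cells of the heart wall, had the most members called higher: 11 of 30 measured members were higher and 0 lower, where 6.88% of all genes were higher and 3.02% lower. Of the 30, 28 had a positive ratio, and the median log2 ratio was 0.42, beside 0.04 over all genes tested. T cells had 9 of 29 higher and 1 lower (all genes 6.88% and 2.62%), with a median of 0.45 beside 0.07. In cardiomyocytes 5 of 13 were higher and 0 lower (7.1% and 2.38%), and the median of 0.77 turned to -0.44 when the 5 richest cells of each age were left out. Smooth muscle cells, the contractile cells of vessel walls, had 2 of 23 higher and 1 lower (5.18% and 2.11%), with a median of 0.40, and pericytes, the cells that wrap capillaries, had 2 of 14 higher and 0 lower (3.53% and 3.15%), with a median of 0.18.

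The endothelium had medians below 0. Vascular endothelial cells, which line the vessels, had 2 of 31 members higher and 1 lower (all genes 4.94% and 4.07%), and 7 of the 31 had a positive ratio, with a median of -0.22 beside -0.01 over all genes. Endocardial cells, which line the chambers, had 0 of 22 higher and 5 lower (6.27% and 8.44%).

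Among the other immune classes, monocytes had 5 of 33 higher and 1 lower (7.16% and 5.84%), with a median of 0.17, and dendritic cells had 7 of 31 higher and 2 lower (5.33% and 7.11%), with a median of 0.21. Macrophages had 2 of 32 higher and 0 lower (4.13% and 3.6%), with a median of -0.10, and neutrophils had 1 of 29 higher and 1 lower (6.65% and 10.7%), with a median of -0.11. In B cells 5 of 30 were higher and 2 lower (18.3% and 6.53%), a share of higher members near that of all genes. TMM scaling, which centres each class on its bulk of genes, moved the median of all B cell genes by -0.20, and on that scale 5 B cell members were higher and 5 lower with a median of 0.01. Cycling cells had 4 of 28 higher and 1 lower (9.2% and 5.67%), with a median of -0.05, and 1 of their clusters, led by Dntt and other thymocyte genes, held 39 cells at 18 months and 3 at 2 months.

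The direction in fibroblasts and macrophages depended on the cells compared. Among fibroblasts with Xist and no Y-linked UMI (161 cells at 18 months, 721 at 2 months), all 28 measured members had a positive ratio, 18 were higher and 0 lower (7.35% and 2.34% of all genes), and the median was 0.79. Among fibroblasts with a Y-linked UMI and no Xist (244 and 1445 cells), 0 of 30 were higher and 5 lower (4.5% and 4.32%), and the median was -0.19. Among these fibroblasts Oasl1 and Mx1 had 0 UMIs at 18 months against 37 and 23 UMIs at 2 months, and with both members set to 3 UMIs the median was -0.17.

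Macrophages had a positive and a negative median as well. With Xist and no Y-linked UMI (238 and 148 cells) 11 of 32 members were higher and 0 lower (4.84% and 4%), with a median of 0.46. With a Y-linked UMI and no Xist (239 and 210 cells) 1 of 31 was higher and 9 lower (3.93% and 3.57%), with a median of -0.41. Vascular endothelial cells had a negative median in both kinds of cells. It was -0.17 with Xist and no Y-linked UMI (796 and 1052 cells), with 0 of 29 members higher and 1 lower (3.75% and 3.55%), and -0.27 with a Y-linked UMI and no Xist (585 and 703 cells), with 0 of 28 higher and 5 lower (3.89% and 3.26%). In B cells with Xist 1 of 14 members was higher and 0 lower (4.02% and 4.25%), and with Y-linked UMIs 4 of 26 were higher and 5 lower (19.8% and 7.2%). T cells with Y-linked UMIs had 1 of 20 higher and 3 lower (3.64% and 5.75%), and dendritic cells with Y-linked UMIs had 0 of 27 higher and 6 lower (6.54% and 6.98%), with medians of -0.15 and -0.47 that are opposite in sign to those of all cells of these classes. In smooth muscle cells 0 of 12 were higher and 1 lower with Xist (3.96% and 2.19%), and 2 of 11 were higher and 2 lower with Y-linked UMIs (3.86% and 2.54%). Since the number of animals is not given, a difference between sexes and a difference between animals cannot be told apart, and the difference between the 2 kinds of cells was not tested.

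Irf7 is the transcription factor of the module and drives interferon alpha genes. Its level was highest in monocytes at both ages, with 193 CPM at 18 months and 155 CPM at 2 months, a log2 ratio of 0.32 (0.06 to 0.59) that stayed under the fold rule. Irf7 was called higher in 4 classes and lower in none. Dendritic cells had 51.8 CPM at 18 months against 24.1 CPM at 2 months, a log2 ratio of 1.11 (0.78 to 1.43). That ratio was 0.51 (-0.05 to 1.05) with a Y-linked UMI and no Xist. In B cells the levels were 17.2 and 7.65 CPM, a log2 ratio of 1.17 (0.70 to 1.65), and in smooth muscle cells 11.6 and 3.08 CPM, a log2 ratio of 1.91 (0.89 to 2.89) on 16 and 23 UMIs. Values by hashtag within each heart library follow for the first 2 classes, with no share of all genes that separate by hashtag beside them. The labels do not pair these hashtags with animals, and each hashtag held cells with Xist and cells with Y-linked UMIs. Over the whole libraries, 26% of 18-month cells and 58.7% of 2-month cells had no hashtag and are not in such values. B cells had 19.9 and 14.3 CPM in the 18-month hashtags 11 and 12, against 7.5 CPM in each of the 2-month hashtags 09 and 10, the last on 2 UMIs. Dendritic cells had 49.5 CPM in each 18-month hashtag, against 26.6 and 15.7 CPM in the 2-month hashtags.

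Fibroblasts had 24.3 CPM of Irf7 at 18 months and 14.3 CPM at 2 months, a log2 ratio of 0.76 (0.48 to 1.04). That ratio was 1.55 (1.12 to 1.98) in cells with Xist and no Y-linked UMI and 0.21 (-0.26 to 0.66) in cells with a Y-linked UMI and no Xist. In vascular endothelial cells the level was 61.5 CPM at 18 months and 67.3 CPM at 2 months, in macrophages 52.9 and 51.3 CPM, and in neutrophils 85.6 and 75.6 CPM, all with intervals that held 0. T cells (38.2 and 44.5 CPM), cycling cells (16.8 and 21.8 CPM), endocardial cells (18.7 and 33.3 CPM), pericytes (25.8 and 13.9 CPM) and cardiomyocytes (11.5 and 8.65 CPM) were not called either.

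Of the 43 measured pairs of sensor and class, 4 were higher and 1 lower. Over all pairs of gene and class, 7.09% were higher and 4.9% lower. Ddx58 (RIG-I) and Ifih1 (MDA5), which detect viral RNA in the cytoplasm, were measured in 12 classes each and called in none, with ratios between -0.38 and 0.44 and between -0.57 and 0.88. Zbp1, a sensor of left-handed nucleic acids, made up all 4 higher calls. Its level was 153 CPM at 18 months against 92.1 CPM at 2 months in monocytes, a log2 ratio of 0.73 (0.40 to 1.07), and 33.0 against 21.5 CPM in dendritic cells, a log2 ratio of 0.62 (0.25 to 0.99) that was -0.27 (-0.95 to 0.38) with a Y-linked UMI and no Xist. Neutrophils (28.5 against 15.6 CPM, log2 ratio 0.87) and vascular endothelial cells (7.73 against 4.01 CPM, log2 ratio 0.94) also had more Zbp1 in the 18-month library. Dhx58, a regulator of RIG-I signalling, was lower in vascular endothelial cells, with 5.79 CPM at 18 months and 10.3 CPM at 2 months, a log2 ratio of -0.83 (-1.44 to -0.24).

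Isg15 had its highest level in neutrophils at both ages, with 340 CPM at 18 months and 427 CPM at 2 months, and its lowest in B cells at 18 months (10.6 CPM) and in cardiomyocytes at 2 months (12.3 CPM). It was higher in fibroblasts, where the levels were 91.5 CPM at 18 months and 58.5 CPM at 2 months, a log2 ratio of 0.65 (0.50 to 0.78). It was lower in dendritic cells, with 61.7 CPM at 18 months and 118 CPM at 2 months, a log2 ratio of -0.94 (-1.15 to -0.73). In monocytes the levels were 207 and 324 CPM, a log2 ratio of -0.65 (-0.85 to -0.45). The sign of the Isg15 ratio thus differed between fibroblasts and 2 myeloid classes of the same libraries, a difference that was not tested.

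A few cells carried much of some of these sums. In fibroblasts the 5 richest cells held 37.5% of the Isg15 UMIs at 18 months and 15.2% at 2 months, and in monocytes 29.9% and 55.5%. The fibroblast ratio was 1.28 (1.08 to 1.48) in cells with Xist and no Y-linked UMI and -0.52 (-0.82 to -0.24) in cells with a Y-linked UMI and no Xist. By hashtag the dendritic cell levels overlapped: hashtags 11 and 12 at 18 months had 68.4 and 48.1 CPM, and hashtags 09 and 10 at 2 months had 136 and 54.8 CPM. Under the authors' filter on UMIs and mitochondrial share the dendritic cell ratio was 1.38. That filter stops at 15000 UMIs, below the dendritic cell medians of 17034 UMIs at 18 months and 17565 at 2 months. It therefore leaves out most of the class.

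Vascular endothelial cells had 131 CPM of Isg15 at 18 months and 185 CPM at 2 months, a log2 ratio of -0.49 (-0.62 to -0.37) that missed the fold rule. Macrophages had 90.0 and 100 CPM, endocardial cells 118 and 103 CPM, T cells 97.1 and 91.0 CPM, smooth muscle cells 60.7 and 65.6 CPM and pericytes 38.6 and 31.6 CPM, all with intervals that held 0. Cycling cells had 47.3 and 31.6 CPM. Usp18, the protease that removes Isg15 from proteins and restrains interferon signalling, was higher in fibroblasts alone among the 12 classes where it was measured, with 17.6 CPM at 18 months and 7.72 CPM at 2 months, a log2 ratio of 1.19 (0.84 to 1.52). Its ratio was 1.79 (1.26 to 2.32) in fibroblasts with Xist and 0.53 (-0.07 to 1.08) in those with Y-linked UMIs. Herc6, the mouse ligase that attaches Isg15, was lower in endocardial cells, with 36.4 CPM at 18 months and 68.3 CPM at 2 months, a log2 ratio of -0.91 (-1.57 to -0.25).

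The IFIT proteins bind foreign RNA and block its translation, and their genes went in different directions in different classes. Of 49 measured pairs 11 were higher and 4 lower, beside 7.09% and 4.9% of all pairs of gene and class. Ifit3 had 71.5 CPM in 18-month fibroblasts and 42.7 CPM in 2-month fibroblasts, a log2 ratio of 0.74 (0.58 to 0.90). Ifit1 in the same cells had 50.7 and 30.1 CPM, a log2 ratio of 0.75 (0.56 to 0.94). Both ratios turned with the kind of cell. With Xist and no Y-linked UMI the ratio was 1.43 for Ifit3 and 2.03 for Ifit1, and with a Y-linked UMI and no Xist it was -0.73 for Ifit3 and -1.33 for Ifit1.

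In T cells Ifit3 had 24.9 CPM at 18 months and 10.3 CPM at 2 months, a log2 ratio of 1.27 (0.51 to 2.08), and Ifit1 had 20.6 and 9.31 CPM, a log2 ratio of 1.15 (0.34 to 2.02). The 5 richest T cells held 58.6% and 80% of the Ifit3 UMIs, so these values describe few cells. Ifit1 was higher in cardiomyocytes too, with 45.9 CPM at 18 months and 6.99 CPM at 2 months, but 2 cells held all 24 UMIs at 18 months. Ifit3 had 19.1 CPM in 18-month cardiomyocytes and 7.32 CPM in 2-month cardiomyocytes, from 3 and 9 cells.

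Ifit1 was lower in 3 classes. Neutrophils had 23.4 CPM at 18 months and 55.9 CPM at 2 months, a log2 ratio of -1.25 (-1.72 to -0.78), and by hashtag the levels were 14.2 and 37.3 CPM at 18 months and 81.4 and 17.7 CPM at 2 months, which overlap. Dendritic cells had 5.43 and 10.8 CPM, a log2 ratio of -0.99 (-1.74 to -0.27), and endocardial cells had 34.5 and 58.7 CPM, a log2 ratio of -0.77 (-1.46 to -0.07). The endocardial ratio turned between the kinds of cells, at -1.26 with Xist and no Y-linked UMI and 0.74 with a Y-linked UMI and no Xist, each in fewer than 50 cells at 1 age or both. In T cells with a Y-linked UMI and no Xist, Ifit1 had 2 UMIs at 18 months and 12 UMIs at 2 months, a log2 ratio of -2.32 (-5.52 to -0.15) that is opposite in sign to that of all T cells. Ifit2 was higher in monocytes, with 47.3 CPM at 18 months and 22.5 CPM at 2 months, in dendritic cells (11.3 and 7.04 CPM), in cycling cells (16.8 and 4.29 CPM) and in B cells (5.39 and 1.49 CPM). The dendritic cell ratio of Ifit2 was -0.53 (-1.89 to 0.66) with a Y-linked UMI and no Xist. Ifit3b was lower in endocardial cells on 6 and 14 UMIs, and Ifit1bl1 was higher in B cells on 24 and 17 UMIs.

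Without a call, Ifit3 stood at 46.0 CPM at 18 months and 54.3 CPM at 2 months in vascular endothelial cells, 43.9 and 48.2 CPM in macrophages, 62.5 and 47.1 CPM in monocytes, and 38.7 and 41.9 CPM in neutrophils. The levels were 29.8 and 42.9 CPM in endocardial cells, 8.82 and 12.5 CPM in dendritic cells, 7.36 and 4.68 CPM in cycling cells, 3.94 and 2.44 CPM in B cells and 2.89 and 4.55 CPM in smooth muscle cells. In T cells, where Ifit3 was called higher over all cells, its ratio was -0.20 (-1.35 to 0.91) with a Y-linked UMI and no Xist. In macrophages the Ifit3 ratio was 0.43 (0.04 to 0.83) with Xist and no Y-linked UMI and -1.53 (-2.22 to -0.87) with a Y-linked UMI and no Xist.

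**Figure D2:**
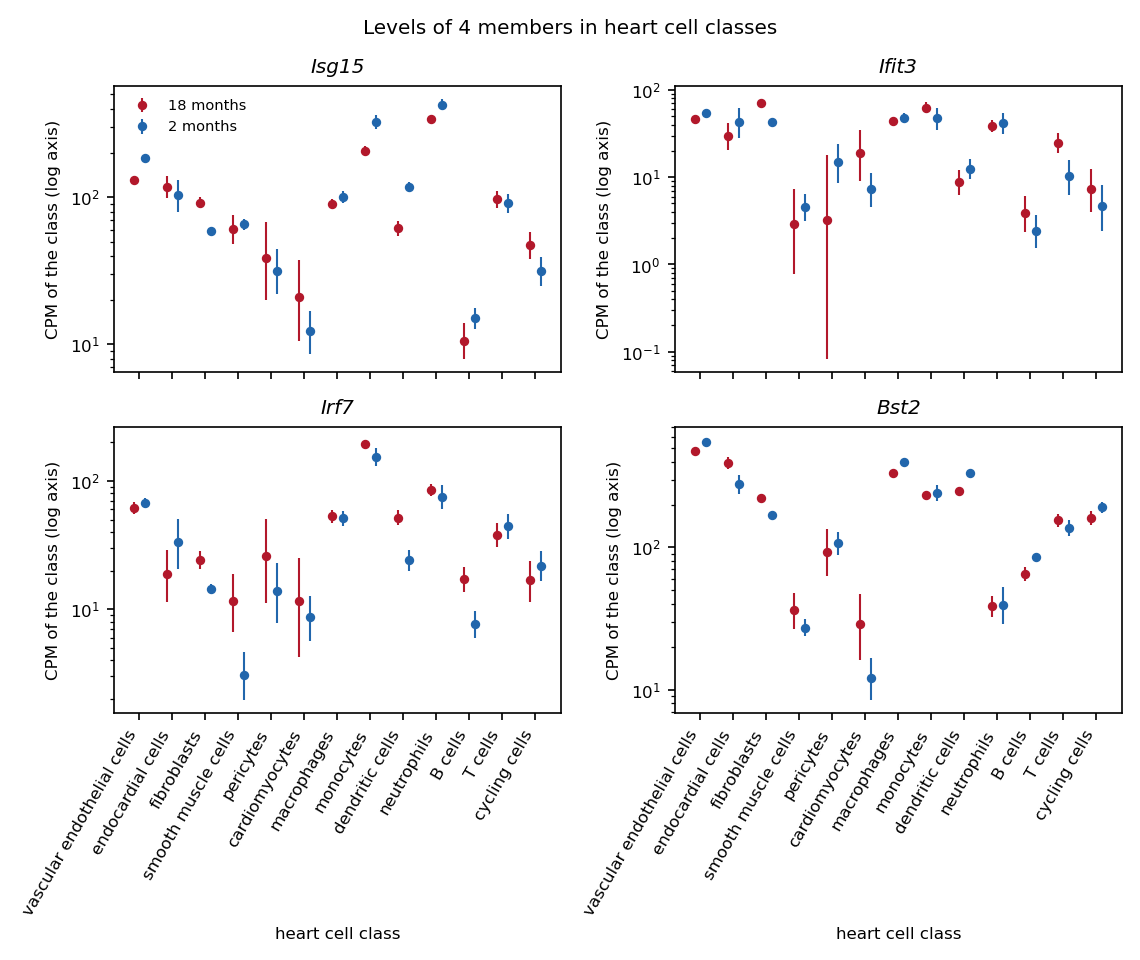
CPM of Isg15, Ifit3, Irf7 and Bst2 in each heart cell class, 18-month library left of the 2-month library, on a log axis. Error bars are exact 95% counting intervals; Isg15 is highest in neutrophils (340 and 427 CPM), Irf7 in monocytes (193 and 155 CPM) and Bst2 in vascular endothelial cells (477 and 554 CPM).

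OAS enzymes make the second messenger that activates RNase L, which degrades RNA. Of 45 measured pairs of OAS gene and class, 11 were higher and 0 lower, beside 7.09% and 4.9% of all pairs. Oasl2 accounted for 5 of them: 81.0 CPM at 18 months against 53.2 CPM at 2 months in monocytes (log2 ratio 0.61, 0.17 to 1.07), 25.3 against 14.5 CPM in dendritic cells (0.81, 0.37 to 1.25), 32.6 against 17.5 CPM in cycling cells (0.89, 0.32 to 1.48), 10.8 against 3.29 CPM in B cells (1.71, 1.04 to 2.40) and 35.4 against 11.1 CPM in pericytes (1.67, 0.35 to 2.98). The dendritic cell ratio of Oasl2 was 0.14 (-0.63 to 0.88) with a Y-linked UMI and no Xist. The level of Oasl2 was highest in neutrophils, at 160 CPM at 18 months and 137 CPM at 2 months, where it was not called. In B cells the hashtags overlapped: hashtags 11 and 12 at 18 months had 13.3 and 9.02 CPM, and hashtags 09 and 10 at 2 months had 2.98 and 15 CPM, the last on 4 UMIs.

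Oas1a was higher in T cells, with 13.7 CPM at 18 months and 5.17 CPM at 2 months, and in cycling cells (16.3 and 8.97 CPM). Oas3 was higher in T cells, with 15.5 and 8.27 CPM, a log2 ratio of 0.90 (0.02 to 1.85). Oasl1 was higher in macrophages, with 14.7 CPM at 18 months and 9.33 CPM at 2 months, a log2 ratio of 0.66 (0.12 to 1.22). This macrophage ratio was 2.11 (0.96 to 3.49) with Xist and no Y-linked UMI and -0.41 (-1.52 to 0.71) with a Y-linked UMI and no Xist. The other higher calls were Oas1a (3.62 and 1.14 CPM) and Oas2 (3.45 and 1.65 CPM) in fibroblasts, and Oas1g was called in none of its 3 classes. The fibroblast ratio of Oas1a was 3.22 (1.91 to 4.65) with Xist and no Y-linked UMI and -0.02 (-1.99 to 1.5) with a Y-linked UMI and no Xist.

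Among the other antiviral effectors 16 of 91 measured pairs were higher and 1 lower, beside 7.09% and 4.9% of all pairs. Rsad2 (viperin), which makes a chain-terminating nucleotide, had 16.2 CPM in 18-month fibroblasts and 9.43 CPM in 2-month fibroblasts, a log2 ratio of 0.78 (0.44 to 1.12). In macrophages it had 48.5 and 30.0 CPM, a log2 ratio of 0.69 (0.40 to 1.0), and in T cells 14.6 and 5.17 CPM, a log2 ratio of 1.5 (0.45 to 2.68). In 18-month macrophages the 5 richest cells held 77.1% of its UMIs, against 30.4% at 2 months. The split was wide: the macrophage ratio was 1.75 (1.09 to 2.48) with Xist and no Y-linked UMI and -2.33 (-3.19 to -1.55) with a Y-linked UMI and no Xist, and the fibroblast ratio was 2.72 and -1.06. T cells with a Y-linked UMI and no Xist had 1 UMI of Rsad2 at 18 months and 9 UMIs at 2 months.

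Trim30a, a regulator of Toll-like receptor signalling, was higher in fibroblasts, with 47.9 CPM at 18 months and 22.8 CPM at 2 months, a log2 ratio of 1.07 (0.87 to 1.27). It was detected in 31.1% of 18-month fibroblasts and 20.3% of 2-month fibroblasts, and its ratio was 1.91 with Xist and 0.24 with Y-linked UMIs. Slfn5 was higher in dendritic cells, with 122 CPM at 18 months and 73.4 CPM at 2 months, a log2 ratio of 0.73 (0.54 to 0.93), and in cardiomyocytes (38.3 and 17.3 CPM, 20 and 52 UMIs). Its highest level was in vascular endothelial cells, at 972 and 965 CPM, a log2 ratio of 0.01 (-0.04 to 0.06).

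Isg20, an exonuclease of RNA, took both directions. It was higher in T cells (31.8 CPM at 18 months and 15.5 CPM at 2 months), monocytes (38.2 and 22.5 CPM), dendritic cells (14.5 and 9.39 CPM) and smooth muscle cells (7.95 and 2.41 CPM). The dendritic cell ratio was -0.84 (-2.17 to 0.31) with a Y-linked UMI and no Xist. B cells went the other way, with 8.08 CPM at 18 months and 15.6 CPM at 2 months, a log2 ratio of -0.95 (-1.5 to -0.43). Eif2ak2 (PKR), the kinase that halts translation when it binds double-stranded RNA, was higher in T cells alone among its 13 classes, with 22.8 and 12.4 CPM. The T cell ratio of Eif2ak2 was 0.05 (-1.20 to 1.27) with a Y-linked UMI and no Xist. Cmpk2, a mitochondrial nucleotide kinase, was higher in B cells, with 7.04 CPM at 18 months and 3.08 CPM at 2 months, and in T cells (12.9 and 4.65 CPM). Mx1 was higher in T cells (9.02 and 2.07 CPM) and in vascular endothelial cells, where it had 4.51 and 1.34 CPM on 28 and 10 UMIs.

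Bst2 was measured in all 13 classes and called in 1. The level was 477 CPM at 18 months and 554 CPM at 2 months in vascular endothelial cells (log2 ratio -0.22, -0.29 to -0.15), 390 and 278 CPM in endocardial cells (0.49, 0.23 to 0.75), and 223 and 170 CPM in fibroblasts (0.39, 0.31 to 0.48). In the myeloid classes it was 333 and 401 CPM in macrophages, 249 and 332 CPM in dendritic cells, 233 and 242 CPM in monocytes, and 38.5 and 39.5 CPM in neutrophils. Bst2 stood at 64.6 and 85.5 CPM in B cells, 155 and 137 CPM in T cells, 161 and 191 CPM in cycling cells, 93.4 and 107 CPM in pericytes, and 36.1 and 27.3 CPM in smooth muscle cells. The call in cardiomyocytes, 28.7 CPM at 18 months and 12.0 CPM at 2 months, came with an expected share of free RNA of 69.6% and 86.4% of its UMIs and turned to -0.30 without the 5 richest cells.

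Ifi27l2a, a small hydrophobic protein, was the member with the most UMIs in both hearts, 41028 at 18 months and 88251 at 2 months, and was called in both directions. Endocardial cells had 212 CPM at 18 months and 779 CPM at 2 months, a log2 ratio of -1.88 (-2.11 to -1.65), with 52.9% and 56.8% of the UMIs in the 5 richest cells. B cells had 362 and 573 CPM (-0.66, -0.74 to -0.58), T cells 349 and 537 CPM (-0.62, -0.75 to -0.49) and smooth muscle cells 39.8 and 65.7 CPM (-0.72, -1.15 to -0.32). By hashtag the B cells had 341 and 363 CPM at 18 months and 576 and 487 CPM at 2 months. Pericytes had 602 CPM at 18 months and 175 CPM at 2 months, a log2 ratio of 1.79 (1.49 to 2.09), but the 5 richest of 53 cells held 91.4% of those 18-month UMIs. The pericyte ratio was 3.07 with Xist and no Y-linked UMI and -1.23 with a Y-linked UMI and no Xist, each in fewer than 50 cells at 1 age or both. In cardiomyocytes, where free RNA was expected to give 89.4% and 93.6% of its UMIs, the levels were 76.5 and 48.9 CPM, and the ratio was 4.09 with Xist and -3.36 with Y-linked UMIs, again in fewer than 50 cells at 1 age or both.

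Of the remaining members, Phf11b was higher in fibroblasts, with 9.48 CPM at 18 months and 3.18 CPM at 2 months, a log2 ratio of 1.58 (1.08 to 2.05) that was 2.14 (1.42 to 2.86) in fibroblasts with Xist and 0.82 (-0.18 to 1.72) in those with Y-linked UMIs. Ifi44 was higher in 4 classes, of which cycling cells (18 and 3 UMIs) and monocytes (20 and 1 UMIs) had very few counts, with log2 ratios of 3.02 (1.24 to 5.42) and 2.72 (0.08 to 8.09). In fibroblasts it had 3.62 CPM at 18 months and 1.5 CPM at 2 months, and the log2 ratio was 4.39 (2.79 to 6.41) with Xist and no Y-linked UMI, on 18 and 4 UMIs, and -1.49 (-4.59 to 0.46) with a Y-linked UMI and no Xist, on 2 and 39 UMIs. Rtp4, a chaperone of receptors, was lower in endocardial cells (42.0 CPM at 18 months and 73.0 CPM at 2 months, log2 ratio -0.80), with ratios of -1.09 with Xist and 0.16 with Y-linked UMIs, each in fewer than 50 cells at 1 age or both. Ifi35 was lower in cycling cells (34.2 and 59.7 CPM, log2 ratio -0.80), and Xaf1 was measured in all 13 classes and called in none.

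Of 25 genes that sense, make or carry the interferon signal, between 8 and 17 were measured per class, and none of the 13 classes had more than 3 called higher or 2 called lower. In dendritic cells 3 of 17 were higher, beside 5.33% of all genes, and in endocardial cells 2 of 12 were lower, beside 8.44% of all genes. The receptor chains Ifnar1 and Ifnar2 were called in no class. Stat2 and Irf9 were lower in endocardial cells, with 50.4 CPM at 18 months against 106 CPM at 2 months for Stat2 and 51.3 against 87.3 CPM for Irf9. In dendritic cells Tlr3, a receptor for double-stranded RNA, had 51.6 CPM at 18 months and 17.4 CPM at 2 months, a log2 ratio of 1.57 (1.21 to 1.94), with Irf9 (62.2 and 38.7 CPM) and Tyk2 (65.1 and 40.9 CPM) higher as well. Tlr7, which senses single-stranded RNA in endosomes, was higher in monocytes (44.9 and 20.5 CPM). Transcripts of interferon beta itself were close to 0: Ifnb1 had 11 UMIs at 18 months and 4 UMIs at 2 months in macrophages, and 4 and 13 UMIs in dendritic cells.

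A second list held 20 interferon-stimulated genes outside the module. In fibroblasts all 20 were measured, 17 had a positive ratio, and 1 was called higher (Ifi47, 13.4 CPM at 18 months and 6.42 CPM at 2 months), with a median of 0.25, beside 6.88% of all fibroblast genes called higher. In vascular endothelial cells 5 of 20 had a positive ratio and none was called, with a median of -0.13. B cells had 4 of 19 higher, beside 18.3% of all B cell genes, among them Samhd1, a nuclease of deoxynucleotides, with 366 CPM at 18 months and 188 CPM at 2 months, a log2 ratio of 0.96 (0.86 to 1.06). Ifitm3, which blocks virus entry, was higher in T cells (89.8 and 50.2 CPM) and in cardiomyocytes (178 and 56.2 CPM) and lower in dendritic cells (959 and 1489 CPM) and cycling cells (287 and 670 CPM).

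Sums over a class cannot show whether many cells carry a little or a few carry much, so single cells were scored next. Each cell was thinned to 1000 UMIs, and a cell with UMIs of at least 5 different members was counted as strongly positive. Cells with fewer UMIs were left out, 410 at 18 months and 476 at 2 months. Of the scored cells, 487 of 7406 (6.58%, 6.02 to 7.16) were strongly positive at 18 months and 631 of 10434 (6.05%, 5.60 to 6.52) at 2 months, with Clopper-Pearson 95% intervals. The most members found in 1 cell were 24 at 18 months and 21 at 2 months.

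Endothelium held most of these cells. Vascular endothelial cells made up 27.3% of scored cells and 53% of strongly positive cells at 18 months, and 22.9% and 66.7% at 2 months. Their own share was 12.8% (258 of 2023, 11.3 to 14.3) at 18 months and 17.6% (421 of 2389, 16.1 to 19.2) at 2 months. Each of their 4 clusters had a lower share at 18 months, at 10.2%, 13.6%, 13% and 12.7% against 15.5%, 18%, 19.5% and 13.5% at 2 months. By hashtag the shares were 13.3% and 11.9% at 18 months, on 442 and 581 scored cells, and 18.7% and 21% at 2 months, on 461 and 262. Cells with no hashtag or with mixed hashtags are not in these shares, and a hashtag is not known to be an animal. The median depth of this class was 2325 UMIs at 18 months and 2300 UMIs at 2 months, and the 18-month share was the lower one in cells with Xist (14.6% against 17.1%) and in cells with Y-linked UMIs (11.7% against 18.9%).

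Myeloid shares came next. In neutrophils 6.93% (65 of 938) were strongly positive at 18 months and 14.1% (30 of 213) at 2 months, and by hashtag the shares were 3.86% and 9.84% at 18 months and 15.3% and 11.6% at 2 months. In the neutrophil cluster led by Retnlg and Cxcr2 alone, the shares were 7.06% at 18 months and 17.6% at 2 months. Monocytes had 12.8% (38 of 298, 9.18 to 17.1) at 18 months and 14.5% (10 of 69, 7.17 to 25) at 2 months. Macrophages had 5.78% (38 of 658, 4.12 to 7.84) and 8.49% (45 of 530, 6.26 to 11.2), and 2-month hashtag 09 had 1.94% where 2-month hashtag 10 had 10.2%, on either side of 6.23% and 5.87% at 18 months.

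In fibroblasts the share of strongly positive cells was 4.28% (21 of 491, 2.67 to 6.46) against 2.14% (56 of 2617, 1.62 to 2.77) at 2 months. In cells with Xist and no Y-linked UMI the shares were 7.5% (12 of 160) at 18 months and 2.51% (18 of 717) at 2 months. With a Y-linked UMI and no Xist the shares were 1.23% (3 of 244) and 1.73% (25 of 1445). The other classes were low or rested on few cells: T cells had 3.05% at 18 months and 2.95% at 2 months, dendritic cells 3.27% and 2.14%, endocardial cells 5.73% and 7.14%, B cells 0.809% and 0.536%, and cycling cells 1.01% and 5.49%. Pericytes had 1 strongly positive cell at each age and cardiomyocytes had 2 at 18 months and 1 at 2 months. Smooth muscle cells had 0 of 147 and 0 of 801, with Clopper-Pearson intervals that reach up to 2.48% and 0.459%.

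**Figure D3:**
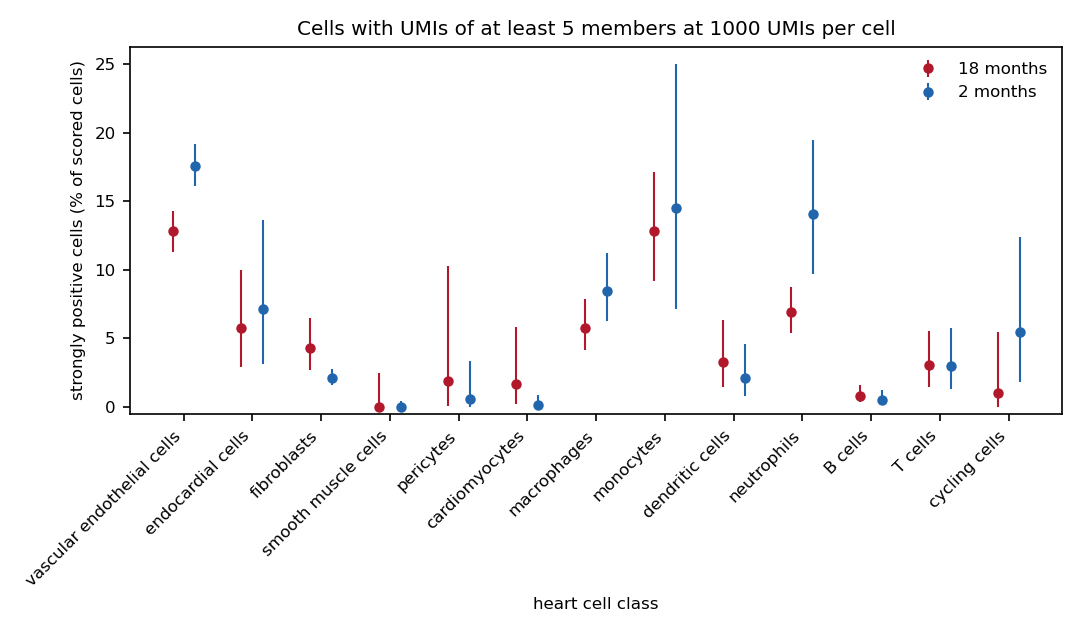
Percent of scored cells with UMIs of at least 5 members after thinning to 1000 UMIs, by heart cell class, 18-month library left of the 2-month library, with 95% Clopper-Pearson intervals. Vascular endothelial cells are at 12.8% and 17.6%, fibroblasts at 4.28% and 2.14%.

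Without thinning the shares were higher: 70.9% of 18-month and 70.8% of 2-month fibroblasts, 41.8% and 48.5% of vascular endothelial cells, and 12.9% and 40% of B cells had UMIs of at least 5 members, and the B cells had medians of 4350 and 8993 UMIs.

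Strongly positive cells also differed from the rest of their class in genes that did not choose them. The cells were selected on the members, so this is a description without a test. Of the 20 further interferon-stimulated genes, 19 in vascular endothelial cells at each age had an interval above 0, with medians of 1.17 at 18 months and 1.03 at 2 months on the log2 scale, and in fibroblasts 18 of 19 and 18 of 20 had one, with medians of 1.87 and 1.64. The signalling list was nearer to equal, with medians of 0.19 and 0.30 in vascular endothelial cells. Depth was similar, at 2576 UMIs in strongly positive and 2525 in other vascular endothelial cells at 18 months, and 2576 and 2507 at 2 months.

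Genes outside the module were compared in the same way. Cxcl10, a chemokine that draws T cells, had 113 CPM in strongly positive vascular endothelial cells and 6.09 CPM in the others at 18 months, a log2 ratio of 4.21 (3.61 to 4.85), and 84.9 and 4.71 CPM at 2 months. In 18-month macrophages it had 1259 and 113 CPM. Iigp1, an interferon-inducible GTPase, led in fibroblasts, with 671 and 21.6 CPM at 18 months and 352 and 23.6 CPM at 2 months. Some leading genes were of other kinds: Ltbp2 in 18-month and Comp in 2-month fibroblasts, both matrix genes, C1qb in 18-month neutrophils, a macrophage gene, and the fibroblast genes Gsn, Mgp and Dcn in 2-month macrophages, where Gsn had 2122 CPM in strongly positive cells and 404 CPM in the others. Whether free RNA or mixed droplets had a part in these was not tested.

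In the lymph node pool 10183 cells with 1 hashtag were kept, with a median of 2717 UMIs, and 6723 cells of named T cell states were scored. Of them 436 (6.49%, 5.91 to 7.10) were strongly positive, with up to 21 members in 1 cell. The share was highest in cells with naive markers. Naive-like CD4 T cells, which carry Lef1 and Igfbp4, had 16.9% (39 of 231, 12.3 to 22.3), naive-like CD8 T cells 10.3% (94 of 910, 8.43 to 12.5) and memory CD4 T cells, which carry S100a4 and Itgb1, 9.93% (40 of 403, 7.19 to 13.3). These 3 neighbours in the order overlap in part. The sort notwithstanding, 911 kept cells carried markers of B cells, 229 of macrophages, 84 of plasmacytoid dendritic cells and 54 of dendritic cells, and 824 stayed unnamed. Their strongly positive shares were 2.76%, 4.79%, 9.76% (8 of 82), 1.96% and 9.44% (52 of 551) in this order. These cells are not part of the T cell shares.

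Lower shares stood in the other T cell states, of which 2 names are approximate. Of the 1642 Klr-positive CD8 T cells, 915 were in a cluster without a Klr gene among its leading genes. Its marker score was 0.86 for naive-like and 0.85 for Klr-positive CD8 T cells. Of the 2106 activated regulatory T cells, 1078 were in a cluster that scored 1.09 as resting and 1.06 as activated. Klr-positive CD8 T cells had 6.77% (93 of 1373), activated regulatory T cells 6.13% (92 of 1502), gamma delta T cells 4.98% (10 of 201), Gzmk CD4 T cells 4.86% (7 of 144) and follicular helper T cells 4.09% (26 of 636). Gzmk CD8 T cells (28 of 1051, 2.66%, 1.78 to 3.83) and cycling T cells (7 of 272, 2.57%) were lowest. Gzmk CD4 T cells had a median of 837 UMIs, so that 300 of 444 of them were too shallow to score. Irf7 was highest at 209 CPM in naive-like CD4 T cells and lowest at 46.4 CPM in cycling T cells, and Ifit1 had 154 CPM and 110 CPM in naive-like and memory CD4 T cells and between 13.6 and 51.8 CPM in the other states.

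Values by hashtag are given next. The share of strongly positive T cells was 29.1% (234 of 804, 26.0 to 32.4) in hashtag 1, and 0.61%, 7.29%, 2.35%, 1.75%, 3.23%, 3.18% and 4.59% in hashtags 2 to 8. Summed member CPM was 6223 in hashtag 1 and lay between 1434 and 2447 in the others. Hashtag 1 had the highest level of 31 of the 32 measured members, and the highest level of 10.4% of all 11990 genes measured; Oas1a was the exception, with its highest level of 56.0 CPM in hashtag 7. The samples behind the hashtags are not named, so this is given as values with no comparison of groups.

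The order of T cell states changed without hashtag 1, which held 38% of the naive-like CD4 T cells and 1.3% of the Gzmk CD8 T cells. Without hashtag 1 the share over all named states was 3.41% (202 of 5919). Memory CD4 T cells were highest at 7.14% (4.72 to 10.3), and naive-like CD4 T cells stood at 6.34% (2.94 to 11.7), with intervals that overlap. Gamma delta and Gzmk CD4 T cells each had 4.35%, naive-like CD8 T cells 4.06% and activated regulatory T cells 3.3%. Follicular helper T cells had 2.98%, Klr-positive CD8 T cells 2.97% and Gzmk CD8 T cells 2.6%. Cycling T cells were lowest at 0.407% (1 of 246). Inside hashtag 1 the share was 33.7% in naive-like CD4, 29.9% in naive-like CD8, 35.4% in Klr-positive CD8, 35.9% in memory CD4, 25% in follicular helper, 24.6% in activated regulatory and 23.1% in cycling T cells.

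**Figure D4:**
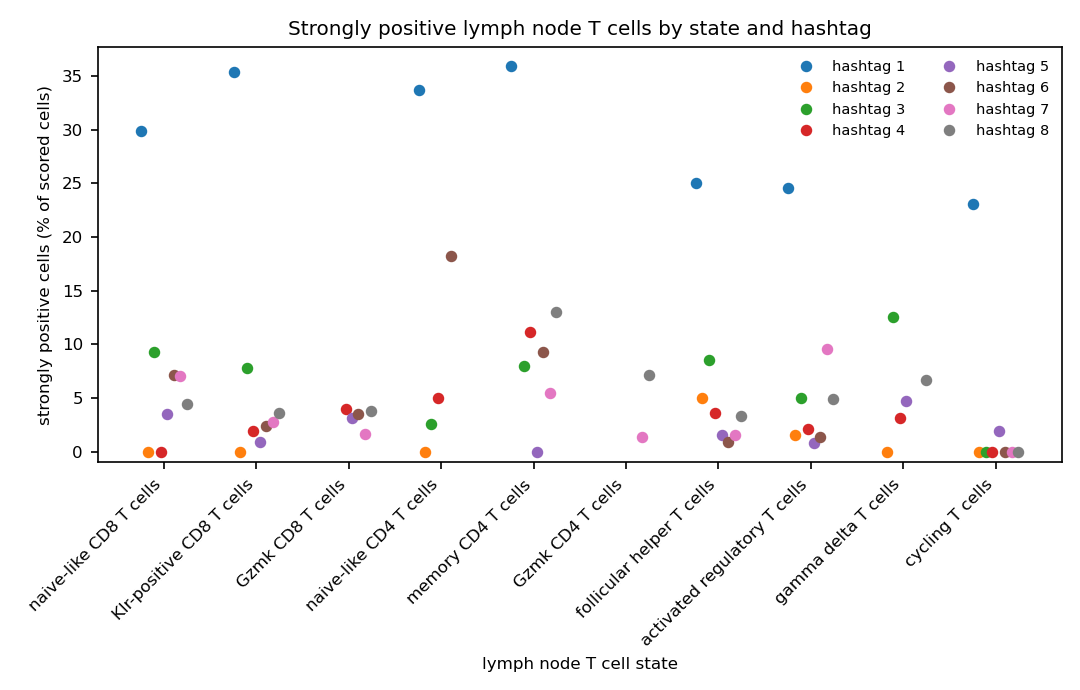
Percent of scored lymph node T cells that were strongly positive, by T cell state and hashtag, for pairs with at least 20 scored cells. Hashtag 1 lies between 23.1% and 35.9% in its 7 states.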

How the data were processed

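Droplet single-cell libraries of sorted heart cells, 1 per age, and of 1 lymph node T cell pool were analysed. The deposited values are UMI counts per gene and cell barcode, which the authors made with Cell Ranger 3.1.0 against mm10 (GRCm38), per the submitters' processing notes, and the filtered matrices carry hashtag antibody counts as further rows. The T cell receptor files were not used.

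Barcodes under 200 genes or over 15% mitochondrial UMIs were dropped. Scrublet at an expected 8% removed 219 cells at 18 months and 478 at 2 months. It called 0 lymph node doublets and so had not worked there, and 2654 lymph node cells with mixed hashtags and 71 with none were left out instead (at least 10 hashtag UMIs, 3 times the next). Clustering used 2000 variable genes without interferon, MHC, receptor, mitochondrial, ribosomal, Xist or Y-linked genes, 30 components, 15 neighbours and Leiden resolution 1 (Scanpy 1.11.5, igraph 0.11.9 and scikit-learn 1.9.0 in Python 3.11.15, with SciPy 1.17.1, NumPy 2.4.6, Matplotlib 3.10.9 and pandas 2.3.3). Clusters were named from listed markers, with limits on naming set after seeing the data, and 6 of 30 heart clusters and 3 of 22 lymph node clusters stayed unnamed. Total depth was 53597057 UMIs in the 18-month heart, 102618684 in the 2-month heart and 38470983 in the lymph node pool.

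Class sums were compared as CPM with exact conditional binomial intervals, with edgeR 4.0.16 (R 4.3.3) used for TMM factors alone, and strongly positive shares have Clopper-Pearson intervals. Intervals and floors cover counting error only, and no p-value was computed because each age is 1 library. The members and lists were chosen with earlier results of these data known. Values by class are given for Isg15, Ifit3, Irf7 and Bst2 and for up to 8 called members per class with the most UMIs; other members past the fold rule and Ltbp2, Comp and C1qb among the top 10 of a class were named beside them. Counting was tested on simulated data. The alternatives were TMM scaling, the authors' cell filter, no doublet removal, thinning, leaving out the 5 richest cells, subtracting free RNA, equal cluster weights, Xist or Y-linked cells, hashtag pairs, other count minimums, clustering resolution and score limits. No column of values was left unused for want of a sample.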

Additional observations from a re-analysis of the deposited data

Results flagged for a closer look

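The members below were called in opposite directions in different classes of the same 2 libraries, or had medians of opposite sign in cells split by Xist and Y-linked UMIs. All values are log2 ratios of 18 over 2 months, and the differences between classes or subsets were not tested. Ifit1 was higher in T cells (1.15), cardiomyocytes (2.72) and fibroblasts (0.75) and lower in dendritic cells (-0.99), endocardial cells (-0.77) and neutrophils (-1.25), and the endocardial value was -1.26 with Xist and 0.74 with Y-linked UMIs. Isg15 was higher in fibroblasts (0.65) and lower in dendritic cells (-0.94) and monocytes (-0.65). Isg20 was higher in T cells (1.03), dendritic cells (0.62), monocytes (0.76) and smooth muscle cells (1.72) and lower in B cells (-0.95). Ifi27l2a was higher in cardiomyocytes (0.65) and pericytes (1.79) and lower in B cells (-0.66), T cells (-0.62), endocardial cells (-1.88) and smooth muscle cells (-0.72).

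The median over the measured members was 0.79 in fibroblasts with Xist and no Y-linked UMI and -0.19 in fibroblasts with a Y-linked UMI and no Xist. In macrophages the medians were 0.46 and -0.41, and in smooth muscle cells 0.15 and -0.05, in the same order of subsets.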

How the results depend on the processing

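No paired analysis was possible because each age is 1 library and the labels pair no hashtag of one heart with a hashtag of the other. Among values that answer a comparison, 137 recomputed ones moved by less than their spread, 39 moved by more and 1 was classed as reversed. Of the other values 121 moved by less and 12 by more. The class of reversed values is narrower than a turn of sign. The median kept its sign in 10 of 11 settings in fibroblasts, 12 of 15 in macrophages and 10 of 13 in neutrophils. It did so in 11 of 13 settings in T cells, 14 of 15 in B cells and 15 of 15 in vascular endothelial cells. The fibroblast median of 0.42 was 0.79 with Xist and -0.19 with Y-linked UMIs. The macrophage median of -0.10 was 0.46 and -0.41 in these subsets, and 0.36 and 0.58 for hashtags 11 and 12 against hashtag 09. Neutrophils went to -0.82 (11 against 09) and 0.79 (12 against 10), and vascular endothelial cells to -0.03 (11 against 09), -0.59 (11 against 10) and -0.85 (12 against 10). The 55 higher calls became 34 under the authors' filter, 9 after thinning, 30 and 8 with Xist and Y-linked UMIs, and 35, 11 and 17 for the hashtag pairs 11 and 09, 11 and 10, and 12 and 10; fewer cells or classes enter these settings. The 15 lower calls became 32 under the authors' filter, 24 without the 5 richest cells, 25 with free RNA subtracted, 27 with equal cluster weights, 2 and 35 with Xist and Y-linked UMIs, and 28 and 25 for 11 and 09 and 11 and 10. The share of all genes called also changes between settings. In B cells 18.3% of all genes were higher over all cells, 4.02% with Xist and 19.8% with Y-linked UMIs. The counts of calls per setting are therefore not read as a result about the members. Of 70 called pairs, 50 kept their sign in every setting that gave a value.

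Differences in strongly positive share, 18 minus 2 months, are in percentage points. Unthinned, they were -27.1 in B cells, -6.2 in T cells, 0.0692 in fibroblasts and -14.8 in neutrophils. In vascular endothelial cells the difference of -4.87 was -7.45 with at least 4 members, -2.67 with at least 7, -8.39 at 2000 UMIs and -2.54 without Bst2, Ifi27l2a, Isg20, Eif2ak2, Trim30a and Slfn5. The lymph node T cell share of 6.49% was 11% with at least 4 members, 3.33% with at least 7, 14.9% at 2000 UMIs, 32.1% unthinned, 3.45% without those 6 genes and 3.41% without hashtag 1, a setting chosen after seeing the data. T cells stayed unnamed at clustering resolution 0.5 and gave no value there. The cause of these shifts was not tested beyond what each setting changes by its construction.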

Other observations

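Hashtag 1 of the lymph node pool lay apart from hashtags 2 to 8, whose samples the labels used here do not name. Isg15 had 516 CPM in hashtag 1 and 26.2, 154, 59.4, 52.9, 66.7, 52.5 and 86.7 CPM in hashtags 2 to 8. Irf7 had 284 CPM in hashtag 1 and 43.5, 100, 53.2, 70.9, 65.2, 99.8 and 95.1 CPM in hashtags 2 to 8. Median depth was 2779 UMIs per T cell in hashtag 1 and 3851, 2688, 2849, 2512, 2927, 2749 and 2994 UMIs in hashtags 2 to 8.

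In strongly positive lymph node T cells all 20 further interferon-stimulated genes had an interval above 0 against the other T cells, with a median log2 ratio of 1.64. Ifitm3 had 60.1 CPM in the strongly positive cells and 3.81 CPM in the others, and Gbp10 had 62.9 and 5.41 CPM.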
